A study of Mus musculus with 3 samples.

Results

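The genes described here build the nuclear pore or carry cargo through it. They are the 40 mouse genes, of 55536 annotated ones, whose symbol begins with Nup, Kpna, Kpnb, Xpo or Ipo in the standard numbered form and which have at least 1 transcript annotated as protein-coding. Of these, 20 encode nucleoporins and 20 encode transport receptors. The rule used names and annotation and no measured value, but it was chosen with earlier results of these data known. RNA bound to chromatin was sequenced, after removal of ribosomal RNA, from bone-marrow-derived macrophages, which are immune cells grown in culture from marrow of C57BL/6J mice. All cells were pre-treated with Lipid A, the immune-activating anchor of bacterial lipopolysaccharide, at 100 ng/ml for 12 h, kept without it for 12 h, and then given 100 ng/ml again for 15 min. This single group has 3 libraries, which the labels number 1, 2 and 3 as biological replicates. Untreated or once-treated cells were not analysed here, so no value below is a response to Lipid A. Sex, age and developmental stage were not recorded, and 1 donor identifier covers the 3 libraries, so part of the spread between libraries may be technical.

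The nuclear pore is a ring of proteins set in the nuclear envelope, and everything that moves between nucleus and cytoplasm passes through it. Its scaffold consists of outer and inner rings anchored by membrane proteins, its channel is filled by flexible proteins rich in phenylalanine and glycine, and filaments extend from the cytoplasmic face and into a basket on the nuclear face. Importins bind cargo in the cytoplasm and release it in the nucleus, exportins bind cargo in the nucleus, and the small GTPase Ran sets the direction. In macrophages this traffic carries signal-activated transcription factors inward and RNA outward. RNA on chromatin is rich in transcripts that are still being made or processed, so a level in this fraction is not a level of mature mRNA in the cytoplasm.

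The 3 libraries held 14609979, 17423948 and 24162551 expected counts in replicates 1, 2 and 3, and the 40 genes together took 0.254, 0.255 and 0.241% of the counts assigned to genes. Replicate 1 lay farther from the other libraries than those lay from each other, with a chi-square per degree of freedom over genes of 30.3 against replicate 2 and 38.0 against replicate 3, whereas replicates 2 and 3 differed by 17.4, so no library repeated another. The labels give start amounts of 1000, 250 and 500 ng of RNA for replicates 1, 2 and 3, and ribosomal RNA-like genes took 11.96, 15.3 and 18.6% of gene counts. The part of these differences in the results below was not tested. All 8 macrophage markers examined had means between 35.4 and 330 TPM (the abundance unit of the tables, a count divided by transcript length and scaled to one total per library). None of 17 markers of neutrophils, lymphocytes, erythroid and stromal cells had a mean of at least 1 TPM, 5 of them had 0 counts in each library, and their summed level was 0.320 to 1.86 TPM per library. In the second deposited quantification, made directly from the reads, 4 of the 17 reached 1 TPM (Mpo, Cxcr2, Cd3d and Col1a1) and the sum was 21.8 to 26.9 TPM.

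The start sites of the genes with the highest and lowest levels are shown first, since their base composition is compared with all promoters below. Each sequence covers 250 bases before to 50 bases after the start in RefSeq annotation of build GRCm38.p6, 5′ to 3′ on the gene's strand. Capitals mark every match, on either strand, to any of 5 motifs. These are the GC box (GGGCGG), the core bound by ETS factors (CCGGAAG), the core of the NRF1 site (GCATGCGC), the CCAAT box (CCAAT) and the TATA box (TATAAA), and overlapping matches run together. Xpo1, Xpo6 and Nup214 had the highest levels, Nup210 and Kpna7 were low, and Nup107 held both the ETS and the NRF1 core.
Xpo1 (chr11:23255791-23256090, plus strand): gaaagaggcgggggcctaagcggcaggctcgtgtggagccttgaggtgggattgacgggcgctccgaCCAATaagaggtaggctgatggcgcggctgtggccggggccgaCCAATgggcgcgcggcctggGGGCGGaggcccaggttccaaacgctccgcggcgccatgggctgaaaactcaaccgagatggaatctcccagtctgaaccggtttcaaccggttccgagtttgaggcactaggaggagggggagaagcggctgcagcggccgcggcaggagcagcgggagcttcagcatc
Xpo6 (chr7:126200452-126200751, minus strand): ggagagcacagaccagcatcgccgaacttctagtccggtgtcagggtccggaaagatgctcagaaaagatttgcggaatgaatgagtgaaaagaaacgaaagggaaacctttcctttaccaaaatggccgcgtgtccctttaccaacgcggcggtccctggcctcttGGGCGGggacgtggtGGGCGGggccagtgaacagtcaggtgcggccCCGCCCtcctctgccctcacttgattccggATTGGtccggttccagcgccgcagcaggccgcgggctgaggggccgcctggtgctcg
Nup214 (chr2:31974200-31974499, plus strand): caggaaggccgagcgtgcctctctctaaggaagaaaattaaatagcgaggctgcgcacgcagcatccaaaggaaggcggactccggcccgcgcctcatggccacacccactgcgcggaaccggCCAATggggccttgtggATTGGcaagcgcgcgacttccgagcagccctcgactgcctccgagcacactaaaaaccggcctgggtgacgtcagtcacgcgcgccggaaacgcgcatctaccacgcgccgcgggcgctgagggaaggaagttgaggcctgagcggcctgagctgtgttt
Nup107 (chr10:117792656-117792955, minus strand): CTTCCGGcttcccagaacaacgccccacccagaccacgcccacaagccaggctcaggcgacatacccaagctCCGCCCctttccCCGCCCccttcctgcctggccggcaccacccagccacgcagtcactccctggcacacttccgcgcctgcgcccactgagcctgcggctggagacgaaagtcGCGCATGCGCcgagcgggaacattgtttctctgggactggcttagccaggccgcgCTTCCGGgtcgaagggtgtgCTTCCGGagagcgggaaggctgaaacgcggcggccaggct
Nup210 (chr6:91116777-91117076, minus strand): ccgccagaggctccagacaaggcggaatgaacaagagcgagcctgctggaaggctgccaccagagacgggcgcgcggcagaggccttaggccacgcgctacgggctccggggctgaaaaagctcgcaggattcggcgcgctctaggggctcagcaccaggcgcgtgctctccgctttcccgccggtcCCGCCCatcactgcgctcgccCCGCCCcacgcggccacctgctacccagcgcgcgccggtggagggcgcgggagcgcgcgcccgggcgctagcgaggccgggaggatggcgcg
Kpna7 (chr5:145009587-145009886, minus strand): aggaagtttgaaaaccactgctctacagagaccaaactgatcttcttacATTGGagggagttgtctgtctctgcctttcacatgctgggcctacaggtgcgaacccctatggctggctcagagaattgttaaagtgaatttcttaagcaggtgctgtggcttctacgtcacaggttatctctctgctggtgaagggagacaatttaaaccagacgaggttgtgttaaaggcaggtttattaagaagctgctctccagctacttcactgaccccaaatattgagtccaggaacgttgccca

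Nearly all genes of the pore and its receptors had RNA on chromatin. A mean of at least 1 TPM was reached by 37 of the 40 genes, 18 of the 20 nucleoporins and 19 of the 20 receptors, whereas 48.5% of the 21901 genes with a protein-coding transcript reached it. Read-based values put 39 of the 40 there, against 59.9% of protein-coding genes. The median level of the 40 genes was 4.03 ± 0.03 on the log2(TPM + 1) scale (SD, n = 3), and that of all protein-coding genes was 0.80 ± 0.01. Among genes of at least 1 TPM, the median was 4.06 ± 0.025 for the 37 genes and 3.66 ± 0.03 for the 10629 protein-coding genes. That distance was much smaller than the one from all protein-coding genes, though larger than either SD. In these bulk samples, fewer cells with a transcript and less RNA per cell cannot be told apart. In each library the 40 genes summed to 955, 939 and 947 TPM in replicates 1, 2 and 3.

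Levels ran over a wide range within the set, and a few genes held much of the sum. Of the 40, 6 lay above 50 TPM, namely Xpo1, Xpo6, Nup214, Nup88, Nup98 and Nup153, and 21 lay between 5 and 20 TPM. Xpo1 alone held 17.5% ± 0.921 of the summed TPM, and Xpo6 and Nup214 held 7.47% ± 0.442 and 7.22% ± 0.564. The exportins summed to 297 ± 15.5 TPM and the cytoplasmic-face nucleoporins to 178 ± 8.46 TPM. The role with the highest median level was the cytoplasmic face at 5.83 ± 0.08 on the log2(TPM + 1) scale, and the lowest was the membrane ring at 0.83 ± 0.30, with between 2 and 8 genes in each role.

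**Figure D1:**
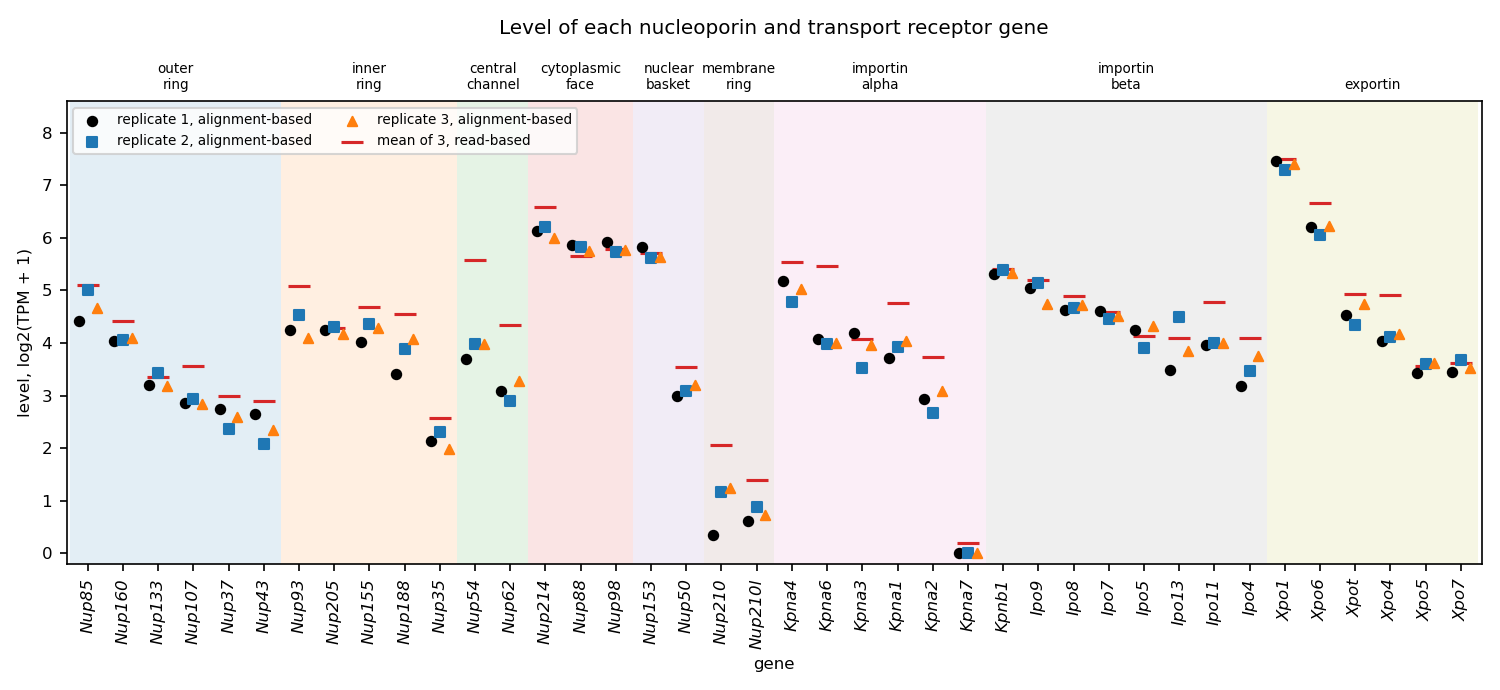
Level of each of the 40 genes on the log2(TPM + 1) scale (vertical axis), grouped by role and ordered by mean within a role. Symbols are the 3 libraries in the alignment-based table and red dashes are the mean of 3 in the read-based table; Xpo1 stands highest at 175, 155 and 167 TPM in replicates 1, 2 and 3 and Kpna7 is at 0 in the alignment-based table.

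The exportins were led by Xpo1 (ENSMUSG00000020290.14, chromosome 11, 23256041 to 23298249, mm10, plus strand), which encodes the main export receptor for proteins with a leucine-rich export signal. It had 175, 155 and 167 TPM in replicates 1, 2 and 3, and 7960, 8774 and 12209 expected counts. Of the protein-coding genes of at least 1 TPM, 270 lay above it. All 3 of its libraries lay above every library of the other 39 genes. Xpo6 (ENSMUSG00000000131.15, chromosome 7, 126101715 to 126200501, minus strand), whose product exports actin, followed with 73.2, 65.4 and 73.7 TPM.

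Xpot, the exportin of transfer RNA, had 22.2, 19.2 and 25.7 TPM. Xpo4, which exports a translation factor and a SMAD protein, had 15.5, 16.2 and 16.9 TPM. The libraries of Xpot and Xpo4 did not overlap in the alignment-based table. Xpo5, the exportin of precursor microRNAs, had 9.84, 11.1 and 11.3 TPM. Xpo7, an exportin with many kinds of cargo, had 9.93, 11.8 and 10.5 TPM, within the range of Xpo5 apart from replicate 2. In the read-based table Xpot had 31.1, 23.95 and 33.8 TPM and Xpo4 had 25.4, 32.2 and 30.2 TPM, so their libraries overlapped.

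At the cytoplasmic face, Nup214 and Nup88 form the platform where messenger RNA leaves the pore, and Nup98 is a mobile channel protein whose gene also encodes the scaffold protein Nup96. Nup214 (ENSMUSG00000001855.15, chromosome 2, 31974436 to 32053975, plus strand) had 69.0, 73.1 and 63.0 TPM in replicates 1, 2 and 3. Nup88 had 57.0, 55.4 and 52.5 TPM. Nup98 had 59.4, 52.0 and 53.4 TPM. The values of Nup88 and Nup98 overlapped each other, and all lay below those of Nup214. Nup88 shares 48 nt of exon sequence with Rabep1 on the opposite strand, which had 39.0 ± 1.73 TPM, and Nup214 overlaps Fam78a, Gm16534 and Gm13609 on the opposite strand, each of which had a mean under 9 TPM. Reads of overlapping genes cannot be assigned with certainty, since no source used here says whether strand entered the counting.

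The basket nucleoporin Nup153, which docks receptors at the nuclear side, had 55.5, 48.0 and 48.5 TPM. Nup50, its partner in releasing imported cargo, had 6.93, 7.52 and 8.19 TPM. The gap between these partners was larger than the spread of either gene over libraries.

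Genes of the outer ring, the Y-shaped scaffold complex, had a median level of 3.08 ± 0.10 on the log2(TPM + 1) scale. Nup85 had 20.3, 31.2 and 24.3 TPM in replicates 1, 2 and 3, the highest of the 6. Nup160 had 15.4, 15.5 and 16.01 TPM. Nup133, Nup107, Nup37 and Nup43 had means of 8.70 ± 0.957, 6.37 ± 0.265, 4.95 ± 0.773 and 4.20 ± 1.04 TPM. In TPM, every library of Nup85 lay above every library of the other 5 outer-ring genes, although the proteins are parts of 1 complex. By expected counts, which are not divided by length, Nup85 was not the highest, with 160, 262 and 278 in replicates 1, 2 and 3. Nup160 held 424, 605 and 822 counts and Nup133 held 209, 375 and 403, both above Nup85 in every library. Nup43, Nup37 and Nup35 had mean counts of only 72.3, 71.0 and 67.2, and among the 40 genes Nup210, Nup210l and Kpna7 had lower ones, so counting error weighs more on these genes than on the rest.

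The inner ring had a median of 4.14 ± 0.16 on the same scale, with 4 of its 5 genes close together in the alignment-based table. Nup93, a hub of this ring, had 18.1, 22.0 and 16.0 TPM. Nup205 had 17.96, 18.9 and 17.1 TPM, and Nup155 had 15.2, 19.6 and 18.5 TPM. These 3 genes overlapped one another in the alignment-based table. Nup188, which binds Nup93 in place of Nup205, had 9.67, 13.7 and 15.8 TPM and overlapped Nup155 only in replicate 3. Nup35, which touches the membrane, was lower at 3.42, 3.95 and 2.94 TPM. In the read-based table Nup93 had 32.2, 36.8 and 30.1 TPM. Nup155 had 21.05, 27.1 and 25.7 TPM there and Nup205 had 18.4, 19.0 and 18.3 TPM, so these 3 genes did not overlap.

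The 2 central-channel genes were moderate in the alignment-based table and much higher in the read-based one. Nup54 had 12.0, 14.9 and 14.7 TPM in replicates 1, 2 and 3, and 48.9, 47.1 and 45.2 TPM in the read-based table. Nup62 had 7.47, 6.47 and 8.64 TPM, and 22.7, 14.6 and 20.3 TPM in the read-based table. The annotated gene Nup62 shares 82 nt of exon with Atf5 on the opposite strand and 97 nt with Il4i1 on the same strand. Nup58, the other member of this channel complex, was not used here because no annotated gene carried that symbol.

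The membrane ring was the lowest role. Nup210 (ENSMUSG00000030091.17, chromosome 6, 91013068 to 91116829, minus strand), a membrane-spanning nucleoporin, had 0.280, 1.23 and 1.37 TPM from 22, 57 and 80 counts in replicates 1, 2 and 3. Its relative Nup210l had 0.540, 0.830 and 0.650 TPM. Nup210 was lowest in replicate 1, and its mean was 0.960 ± 0.593 TPM over the 3 libraries. Without replicate 1 its level was 1.20 on the log2(TPM + 1) scale, against 0.92 with all 3, and 38 in place of 37 of the 40 genes then reached 1 TPM.

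Importin alpha proteins are adapters that bind the classical import signal and hand the cargo to importin beta. Kpna4 had 35.3, 26.4 and 31.8 TPM in replicates 1, 2 and 3, the highest of the 6. Kpna6, Kpna3 and Kpna1 had means of 15.2 ± 0.499, 14.2 ± 3.45 and 13.9 ± 1.68 TPM and did not separate from each other in the alignment-based table. Kpna2 had 6.67, 5.35 and 7.51 TPM. Kpna7 (ENSMUSG00000038770.17, chromosome 5, 144983519 to 145084030, minus strand), known in mice from oocytes and early embryos, had 0 counts in all 3 libraries. A count of 0 leaves room for up to 2.08e-05% of gene counts in replicate 1, 1.73e-05% in replicate 2 and 1.24e-05% in replicate 3 (3 counts, counting error only). It was listed at 0.220, 0.0815 and 0.134 TPM in the read-based table. In that table Kpna6, Kpna3 and Kpna1 had means of 43.0 ± 2.24, 15.8 ± 3.39 and 26.0 ± 0.0918 TPM, and their libraries did not overlap. Kpna6 there overlapped Kpna4, which had 51.2, 40.2 and 46.1 TPM.

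Kpna4 has other transcribed units within its bounds. The scaRNA gene Gm22009, 343 nt long and on the same strand, held 5726, 13060 and 10859 counts in replicates 1, 2 and 3, whereas Kpna4 itself held 3019, 3081 and 4548. The unclassified gene Gm37558, also within Kpna4 on the same strand, held 1688, 1857 and 2351 counts. Neither overlaps an exon of Kpna4. In TPM, Kpna4 was lowest in replicate 2 at 26.4, the library in which Gm22009 was highest, but its counts were lowest in replicate 1. Whether reads passed between them was not tested.

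The importin beta family was headed by Kpnb1 (ENSMUSG00000001440.5, chromosome 11, 97159714 to 97187881, minus strand), the receptor that works with importin alpha. It had 38.7, 40.9 and 39.1 TPM in replicates 1, 2 and 3. Ipo9, an importer of core histones and actin, had 32.1, 34.4 and 25.6 TPM. Ipo8 and Ipo7, a pair of closely related importins, had means of 24.5 ± 0.951 and 22.0 ± 1.21 TPM, and all libraries of Ipo8 lay above those of Ipo7. Ipo5, an importer of ribosomal proteins and histones, had 17.96, 14.0 and 19.1 TPM.

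Ipo13, which carries cargo in both directions, had 10.3, 21.4 and 13.5 TPM, the widest spread of the 37 genes above 1 TPM. Ipo11 was nearly level at 14.5, 15.1 and 14.9 TPM. Ipo4, an importer of histones and ribosomal proteins, had 8.13, 10.03 and 12.4 TPM. It shares 2583 nt of exon with the protein-coding gene Gm49378 on the same strand, which had 2.29 ± 0.168 TPM, so the division of reads between these genes is uncertain.

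As groups, nucleoporins and receptors lay close together. The median of the 20 nucleoporins was 3.84 ± 0.25 and that of the 20 receptors 4.10 ± 0.04 on the log2(TPM + 1) scale (SD, n = 3). Nucleoporins minus receptors was −0.58, −0.12 and −0.08 in replicates 1, 2 and 3, a mean of −0.26 ± 0.28. The sign was the same in the 3 libraries, but the mean was smaller than its SD, and it was −0.10 without replicate 1, −0.33 without replicate 2 and −0.35 without replicate 3. In the read-based table the difference was −0.34, −0.26 and −0.40. With 3 libraries no sign-flip test can pass a usual threshold, so no p is given.

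Most of the 40 genes varied little between libraries. Of the 37 above 1 TPM, 31 stayed within 1.5-fold between their lowest and highest library, against 75.8% of the 10629 genes of that level. The 6 exceptions were Ipo13 at 2.09-fold, Kpna3 and Nup43 at 1.65-fold each, Nup188 at 1.63-fold, Nup85 at 1.54-fold and Ipo4 at 1.53-fold. Spread was taken over genes with a mean count of at least 10, which 39 of the 40 had, Kpna7 being left out. The median SD over libraries was 0.14 on the log2(TPM + 1) scale for these 39 genes. It was 0.16 for protein-coding genes of at least 1 TPM with such a count. The median biological coefficient of variation, which edgeR estimated on the counts, was 0.132 for the 39 genes and 0.142 for that background. These medians are close to those of other expressed genes. Expected counts were whole numbers (within 0.005) in all libraries for 28 of the 37 genes, against 69.9% of the background, and the other 9 had a fractional count in at least 1 library.

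Which library was highest depended on the scale. Of the 37, 10 were highest in replicate 1, 14 in replicate 2 and 13 in replicate 3, while 37.2, 29.2 and 33.6% of the genes of at least 1 TPM were highest in those libraries. Replicate 1 was the lowest library for 15, replicate 2 for 14 and replicate 3 for 8, against 36.9, 40.2 and 22.9% of that background. With TPM rescaled without features under 200 nt and ribosomal genes, 39 genes reached 1 TPM and were highest in replicates 1, 2 and 3 in 14, 15 and 10 cases, against 47.3, 29.3 and 23.5% of protein-coding genes. Nucleoporins were highest in replicates 1, 2 and 3 in 5, 9 and 4 of 18 cases, and receptors in 5, 5 and 9 of 19. In the read-based table the 37 genes were highest in 12, 17 and 8 cases, against 37.8, 32.6 and 29.5% of the background, and 30 of the 37 had the same highest library in both tables.

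**Figure D2:**
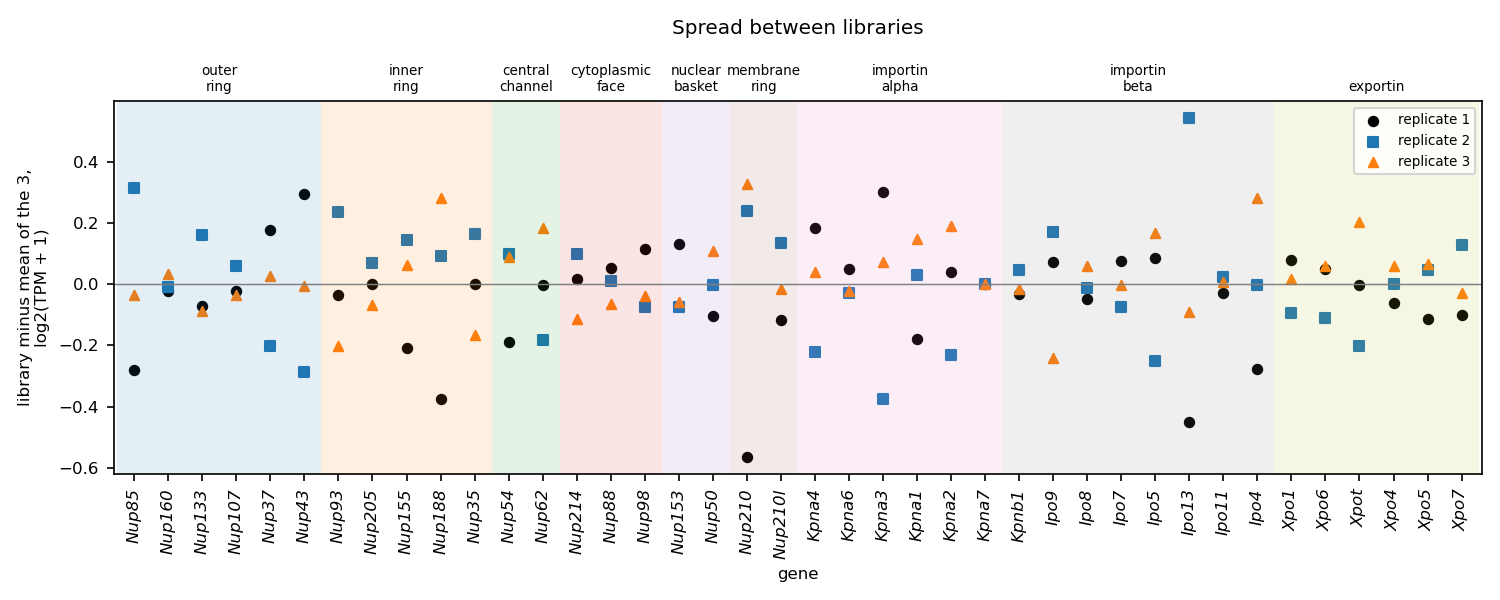
Deviation of each library from the mean of the 3 (vertical axis, log2(TPM + 1)) for each of the 40 genes, grouped by role. Most points lie near 0, and the largest gaps are those of Ipo13, high in replicate 2 at 21.4 TPM, and Nup210, low in replicate 1 at 0.280 TPM.

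The annotation names each transcript by type, and much of the RNA of these genes was assigned to types that are not full coding messages. Of the summed TPM of the 40 genes, 46.1% ± 1.497 was in protein-coding transcripts, 33.1% ± 0.781 in transcripts annotated with a retained intron, 18.7% ± 0.821 in processed transcripts, which have no open reading frame, and 2.05% ± 0.217 in transcripts marked for nonsense-mediated decay (SD, n = 3). The read-based table gave 41.0, 34.0, 20.0 and 5.03% for these types. Reads shared by several transcripts were divided between them by the authors' quantifiers, which sets these shares, and reads from introns of unspliced RNA can fall on a retained-intron transcript, a part that was not tested.

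Retained-intron transcripts exceeded 50% of the gene's TPM in 11 of the 37 genes above 1 TPM, against 27.6% of the 10629 genes of that level, and in 13 of the 37 in the read-based table, against 26.6%. These counts are near the background. Nup43 had 75.0, 92.5 and 87.1% in replicates 1, 2 and 3, from few counts. Nup88 had 79.4, 75.9 and 72.0%, and Ipo8 had 80.4, 75.1 and 71.7%. Ipo11, Ipo9, Nup54, Ipo7, Nup37, Kpnb1, Kpna6 and Nup98 followed at means of 65.9, 64.3, 62.1, 61.4, 59.5, 59.3, 52.7 and 50.2%. In the read-based table, 9 of the 11 stayed above 50%, at 60.2% for Nup37 to 78.8% for Ipo11, while Nup54 had 44.0% and Nup98 46.2%. At the other end, 7 of the 37 have no such transcript annotated. Among the other 30, the lowest by mean were Xpot at 5.002, 21.3 and 14.0% and Nup214 at 22.8, 10.2 and 16.9%.

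The median retained-intron share was 39.7% ± 0.0749 over the 37 genes and 25.4% ± 1.10 over the 10629 genes of at least 1 TPM. Such a transcript is annotated for 30 of the 37 genes, against 61.9% of that background. Among genes with one, a split added after seeing the data, the median was 43.7% ± 1.10 over the 30 genes and 46.8% ± 1.24 over 6584 genes. In the read-based table it was 46.9% ± 0.726 and 45.3% ± 0.682. Among genes with such a transcript, the direction of the difference from the background thus changed with the table.

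Counted by the single transcript with the highest TPM, 26 of the 37 genes were led by a protein-coding transcript, against 64.2% of the background, and 7 by a retained-intron one, against 27.6%. In the read-based table, 20 of 39 were led by a protein-coding transcript, against 53.3%, and 13 by a retained-intron one, against 28.7%. The leading transcript was the same in both tables for 24 genes. Processed transcripts led Nup85, Nup160, Nup133 and Xpo6 in the alignment-based table. In Nup85 they held 83.9, 83.9 and 84.9% of the TPM in replicates 1, 2 and 3, so the high level of this outer-ring gene rested mainly on transcripts without a coding frame. Its protein-coding transcript Nup85-201 had 3.26, 4.52 and 3.66 TPM. Nup160 had 72.5, 66.4 and 63.8% in processed transcripts, and its coding transcript Nup160-201 had 4.23, 5.22 and 5.80 TPM. By these coding transcripts the genes overlapped, whereas by their gene totals Nup85 lay above Nup160 in every library.

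Xpo1 and Xpo6, the highest genes, differed in make-up. Xpo1 has no annotated retained-intron transcript, and 65.9, 67.5 and 72.2% of its TPM in replicates 1, 2 and 3 was in protein-coding transcripts. The coding transcript Xpo1-203 had 55.2, 53.0 and 59.7 TPM and the processed transcript Xpo1-206 had 59.6, 50.4 and 46.5 TPM. Xpo6 had only 8.98% of its TPM in protein-coding transcripts, with 44.3% ± 4.66 in retained-intron and 38.6% ± 4.89 in processed ones. Its leading transcript Xpo6-218, of the processed type and 5028 nt long, had 23.5, 21.6 and 21.2 TPM. Kpna1 had the largest share marked for nonsense-mediated decay, 19.2, 27.2 and 17.4%.

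**Figure D3:**
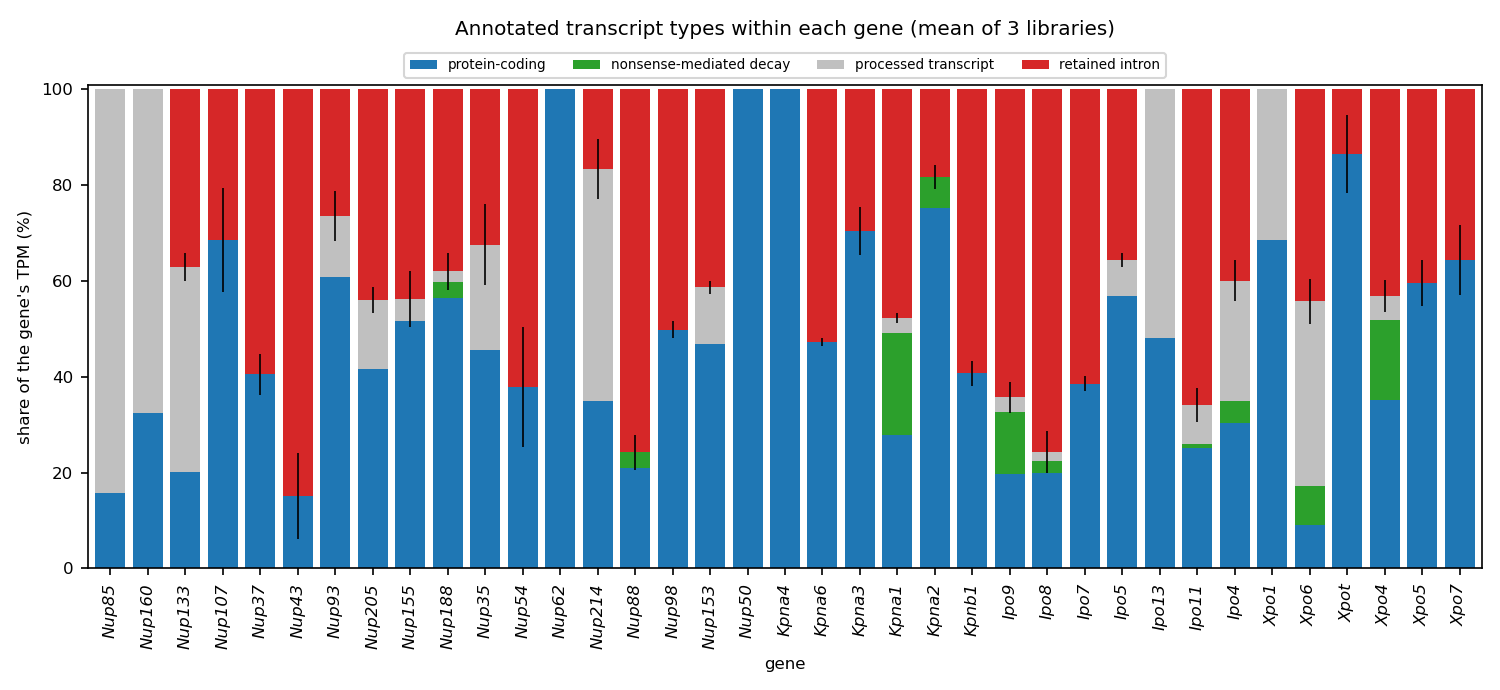
Share of each gene's TPM (vertical axis, %) in the annotated transcript types, as means of 3 libraries in the alignment-based table, for the 37 genes of at least 1 TPM. Black bars are the SD of the retained-intron share over the 3 libraries; Nup43, Nup88 and Ipo8 have the largest retained-intron shares and Nup62, Nup50 and Kpna4 have only protein-coding transcripts.

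The 2 quantifications ordered the genes alike but placed most of them higher from the reads. Over the 37 genes the rank correlation of the 2 mean levels was 0.88, a description over genes that share libraries. The median ratio of read-based to alignment-based TPM was 1.39 for the 37 genes and 1.29 for the 10629 genes, and 34 of the 37 were higher in the read-based table, against 77.5% of the background. The 3 exceptions were Nup88, Nup98 and Ipo5. A ratio of at least 2 was found for 3 genes, Nup54 at 3.40, Kpna6 at 2.82 and Nup62 at 2.55, against 17.0% of the background.

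In these genes short transcripts carried much of the difference. In Kpna6 the retained-intron transcript Kpna6-205, 724 nt long, had a mean of 3.84 TPM in the alignment-based table and 23.7 TPM in the read-based one. In Nup62 the coding transcript Nup62-202, 334 nt long, was listed at 0 TPM in the alignment-based table and had 17.6, 10.2 and 14.4 TPM in replicates 1, 2 and 3 of the read-based one. In Nup54 the transcripts Nup54-204 and Nup54-207, 397 and 445 nt long, were listed at 0 and had 9.45 and 9.14 TPM from the reads. Levels of these 3 genes are therefore uncertain by more than 2-fold.

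**Figure D4:**
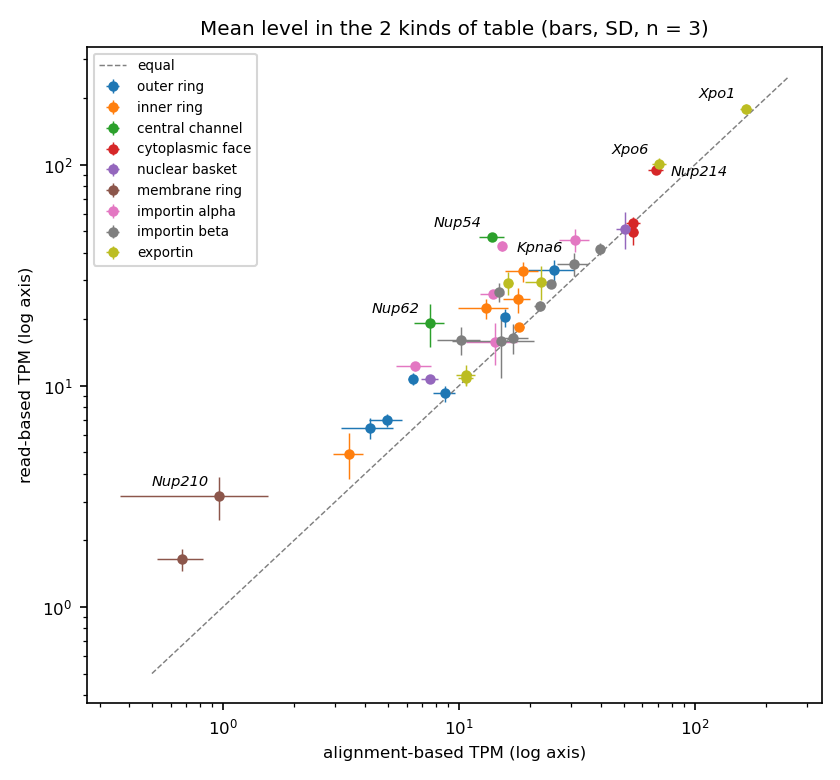
Mean TPM in the read-based table (vertical, log axis) against mean TPM in the alignment-based table (horizontal, log axis) for 39 genes, with SD bars over 3 libraries and colours for roles. Kpna7 is left out, being at 0 in the alignment-based table. Most genes lie above the dashed line of equality, and Nup54, Kpna6 and Nup62 lie farthest above it among genes of at least 1 TPM.

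Other genes of the same machinery, outside the naming rule, spanned a similar range. Of 13 further pore genes, 12 reached 1 TPM, with a median of 3.92 ± 0.22 on the log2(TPM + 1) scale. Ranbp2, the large filament protein of the cytoplasmic face, had 150, 120 and 123 TPM in replicates 1, 2 and 3. Tpr, the basket filament, had 105, 104 and 90.6 TPM. Sec13, a scaffold protein shared with vesicle coats, had 28.1 ± 1.92 TPM, and Nup62cl was listed at 0. Ranbp2 and Tpr, like Nup214, Nup88, Nup98 and Nup153, had means above every gene of the 40 listed under the outer or inner ring. Nup98, which also encodes a scaffold protein, was listed under the cytoplasmic face only.

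In the Ran cycle, 6 of 7 genes reached 1 TPM, with a median of 2.78 ± 0.15. Ranbp3, a cofactor of Xpo1, had 23.9 ± 1.84 TPM, Ranbp1 7.71 ± 1.61, Rangap1, the activator of Ran's GTP cleavage, 7.29 ± 1.11 and Rangrf 0.820 ± 0.304 TPM. Among 10 other transport factors, 8 reached 1 TPM, with a median of 3.89 ± 0.13. Nxf1, the bulk exporter of messenger RNA, had 231, 225 and 257 TPM and 130, 129 and 124 TPM in the read-based table, so it lay above Xpo1 in the alignment-based table and below it in the other. Tnpo3, an importer of splicing factors, had 53.0 ± 1.49 TPM, Tnpo1 30.7 ± 2.00 and Ranbp17 0.003 TPM. All 9 genes of the nuclear lamina and inner envelope reached 1 TPM, with a median of 2.96 ± 0.14, led by Tmpo at 55.8 ± 1.84, Sun2 at 15.9 ± 2.47 and Lmna at 12.9 ± 2.77 TPM, and with Banf1 lowest at 1.40 ± 0.210 TPM. Read-based medians were 4.05 for the further pore genes, 3.76 for the Ran cycle, 4.36 for other transport factors and 4.04 for the lamina. All 7 Ran-cycle genes reached 1 TPM in the read-based table.

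**Figure D5:**
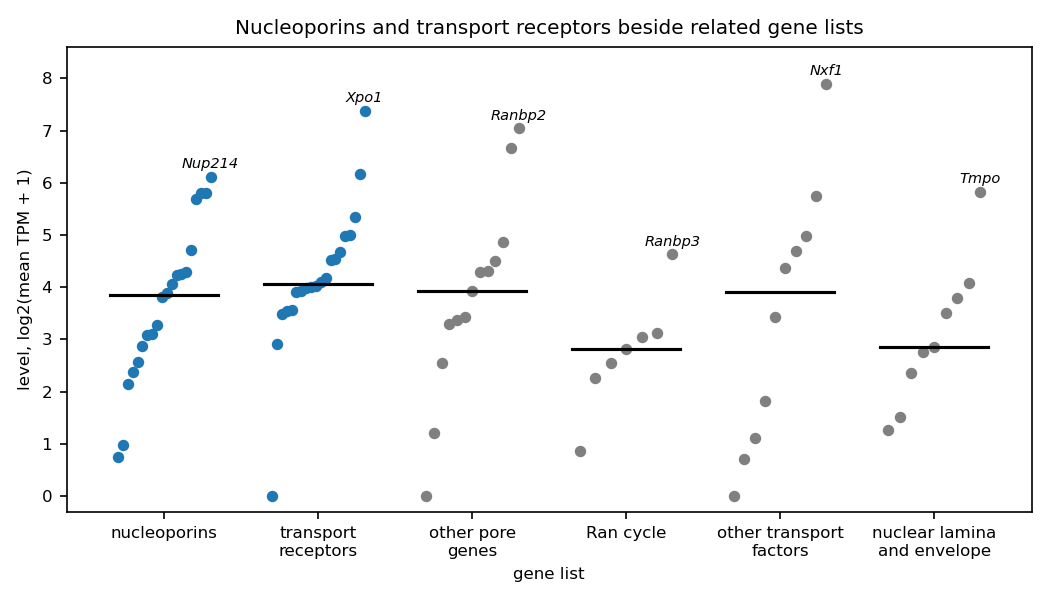
Level of each gene, log2(mean TPM + 1) over 3 libraries (vertical axis), for the nucleoporins and transport receptors (blue) and 4 related gene lists (grey). Black lines are medians over genes, and the highest gene of each list is named; Xpo1 averaged 166 TPM, Nup214 68.4 TPM, Ranbp2 131 TPM and Nxf1 238 TPM.

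On median, the genes of the pore and its receptors had longer spans and promoter windows richer in CpG than the comparison sets. Their median span was 48.1 kb, against 23.4 kb for protein-coding genes of at least 1 TPM, with 8 of the 40 (Ipo4, Kpna2, Nup43, Nup62, Nup50, Nup85, Nup54 and Ipo13) below that, and they have a median of 7 annotated transcripts against 5. Span and mean TPM had a rank correlation of 0.35 over the 37 genes. Of the 40 genes, 31 had a RefSeq promoter window, 5 of them more than 1, giving 36 windows. Kpna1, Kpna3, Kpna6, Nup210l, Nup35, Nup43, Nup85, Xpo4 and Xpo7 had none in the table used. The windows had a median GC content of 65.0% against 52.7% for all 32851 windows, a median of 28 CpG dinucleotides against 7, and an observed to expected CpG ratio of 0.918 against 0.384. Of the 36 windows, 32 had more CpG than the median of all, and the exceptions were those of Nup160 and Kpna7 and the additional windows of Nup93 and Ipo5. The comparison set includes windows of genes that are silent in these cells.

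The GC box was present in 66.7% of the 36 windows and 35.7% of all windows, the CCAAT box in 55.6% and 37.4%, the ETS core in 16.7% and 8.86%, the NRF1 core in 11.1% and 2.71%, and the TATA box in 11.1% and 13.6%. These shares count windows and not genes. The ETS core was in 6 windows, among them both overlapping windows of Nup37, and the NRF1 core in 4. The NRF1 core was found at Nup62, Nup107, Nup50 and Xpo5. In the sequences printed above, the window of Xpo1 has 27 CpG and 66.3% GC, with 2 CCAAT boxes and 1 GC box. That of Nup210 has 41 CpG and 73.7% GC, so a CpG-dense window stood at the highest gene and at one of the lowest alike. The window of Kpna7 has 4 CpG and 46.7% GC, and it lies 74394 nt downstream of the start that the GENCODE annotation gives for the gene, so it marks another start. A match to these letters is a description and no evidence that a factor binds there.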

How the data were processed

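Per the README files deposited with the tables, the authors' values rest on build mm10 and GENCODE annotation M21; aligner and quantifier are not given in the sources used here. Per the file headers, the authors' gene and transcript tables made from alignments hold expected counts and TPM, and their read-based transcript tables, as deposited, hold estimated counts and TPM, which were summed per gene here. TPM scales each library to one total, so abundant short RNAs lower all other values. Rows of no annotated gene held 1.24, 0.482 and 0.228% of counts in replicates 1, 2 and 3 and were left out. Total read-based counts were 23135627, 30418666 and 40940944. Levels are log2(TPM + 1), a gene of the background had a mean of at least 1 TPM, and detection for dispersions was a mean count of at least 10. R 4.3.3 ran edgeR 4.0.16 (tagwise dispersion without groups, TMM scaling) and DESeq2 1.42.0 on expected counts that had been rounded. All else was done in Python 3.11.15 with pandas 2.3.3, numpy 2.4.6, matplotlib 3.10.9 and scipy 1.17.1. The dispersion step was tested on simulated data. With 1 group, no test between conditions was made, and means ± SD cover 3 libraries. Members and lists were chosen with earlier results of these data known. Every member is named, and of each companion list the 3 highest and the lowest. Alternatives covered quantification, pseudocount, scaling, filters and leaving out each library.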

Additional observations from a re-analysis of the deposited data

How the results depend on the processing

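Of the alternative values of the summary results, 78 were classed as the same, 17 as moved and 0 as reversed. Results with an SD over libraries were the same if they lay within that SD of the main value. Leaving out 1 of 3 libraries cannot shift a mean over libraries by more than that SD, so these values could not be classed as moved. Neither the pseudocount nor the filter at 1 TPM could change the counts of genes reaching 1 TPM or of highest libraries. Part of the 78 was thus fixed in advance, and the tally is no measure of robustness. Counts, the median SD and the median biological coefficient of variation were the same if within 1.5-fold of the main value. Only the nucleoporin minus receptor difference was checked for a change of sign. The median level of the 40 genes, 4.03, was 4.57 in the read-based table, 3.94 with a pseudocount of 0.1, 4.90 with TPM rescaled without features under 200 nt and ribosomal genes, and 4.06 over genes of at least 1 TPM. For nucleoporins it was 4.40 read-based and 4.70 rescaled. For receptors it was 4.73 read-based, 4.02 with a pseudocount of 0.1, 4.97 rescaled and 4.16 over genes of at least 1 TPM. All genes shifted by 0.36 in the read-based table and 0.91 with rescaling (median log2), so these are mostly shifts of scale. TMM and DESeq2 scaling moved no member by more than its spread, but both kept the mean total over libraries, so a member's mean could hardly move. What they could change is the highest library, and with either one 9, 17 and 11 genes were highest in replicates 1, 2 and 3. The retained-intron median, 39.7%, was 41.9% read-based, 39.1% over all members with counts and 43.7% among those with such a transcript annotated, a setting chosen after seeing the data. Counts of highest libraries depend on how many are compared: leaving out a library gave 15 to 17 genes highest in replicate 1, 15 to 22 in replicate 2 and 20 to 23 in replicate 3, against 10, 14 and 13. Without replicate 1 the nucleoporin minus receptor difference was −0.10, and without replicate 3 −0.35. No paired analysis was possible because there is only 1 group. Depth limits Nup210, Nup210l, Nup35, Nup37 and Nup43 most, with under 100 counts in each library.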
